A study of Mus musculus with 18 samples.

Results

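The Cyp2 genes encode the largest family of cytochrome P450 enzymes in the mouse. They were taken as all genes whose symbol in the array's platform annotation is Cyp2 followed by a letter and a number, which gave 35 of the 18193 genes that have a probe set naming 1 gene. Each gene was read from the probe set with the highest mean log2 signal over the 18 arrays. Of the 35 genes, 28 had a mean signal above the low-signal filter of 57.5 and were tested, among 11018 genes in all. They fall into 11 subfamilies: 11 Cyp2c genes (10 tested), 8 Cyp2d (6 tested), 5 Cyp2j (3 tested), 4 Cyp2b (3 tested), and 1 each of Cyp2a, Cyp2e, Cyp2f, Cyp2g, Cyp2r, Cyp2s and Cyp2u, of which Cyp2s1 was not tested.

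Cytochrome P450 enzymes are heme proteins of the endoplasmic reticulum that insert oxygen into lipophilic substrates with electrons passed on by P450 oxidoreductase and cytochrome b5. In liver the Cyp2 enzymes oxidise drugs and other foreign compounds, and also steroids, bile acids, vitamin D and polyunsaturated fatty acids. Several Cyp2b and Cyp2d genes of the adult mouse liver differ between the sexes under the control of growth hormone, and the nuclear receptors CAR (Nr1i3) and PXR (Nr1i2) induce Cyp2b and Cyp2c genes when foreign compounds reach the liver.

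Liver RNA of offspring of DUK mice, an outbred line derived by crossing several laboratory stocks, was hybridised to Affymetrix whole-genome mouse arrays. The control dams received a diet with 20% protein by weight during both pregnancy and lactation. The dams called HP pregnancy received an isoenergetic diet with 40% protein during pregnancy and the control diet during lactation, and the dams called HP lactation received the 40% diet during lactation only. Offspring livers were taken at postnatal day 21 or day 150, which makes 6 groups of 3 arrays. Each array holds a pool of livers. The labels give 3 animals per pool in 1 place and 4 (day 21) or 3 to 4 (day 150) in another. The design text says that 4 to 5 animals of a group, 1 per litter, were combined to 3 pools. If these numbers hold, pools of a group share animals and their arrays are not independent. The p-values below therefore describe the spread between pools, which can be smaller than that between animals. The sex of the animals is not given in the labels. In whole-liver RNA, fewer cells of a type and less RNA per cell cannot be told apart.

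All 6 hepatocyte marker genes were above the filter. Their summed signal ran from 206869 to 235994 in the control arrays at day 21, from 161900 to 197431 in the HP pregnancy arrays and from 155958 to 192824 in the HP lactation arrays of that age. The 99th percentile of all signals was also lower in both high-protein groups at day 21, with means of 16547 and 16150 against 18781 in the control (n = 3 each), although each array's trimmed mean had been set to 500. Strong signals as a whole were lower in these groups, and many Cyp2 genes of liver give strong signals. The ratio of the 3′ to the 5′ Gapdh control signal was above that of every day 21 array on every day 150 array, with group means of 0.843 to 0.942 at day 21 and 1.48 to 1.75 at day 150. Xist, the RNA of the inactive X chromosome, read 7343 on 1 control array at day 21 (replicate 2) and 11644 on 1 HP lactation array at day 150 (replicate 4), and at most 93 on the other arrays.

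The diet comparisons asked which offspring liver genes differed after the high-protein exposure of the dam. In them, 1 of the 28 tested Cyp2 genes passed the test, Cyp2d13. It was lower after HP lactation than in the control at day 21, when 0.172% of all genes tested were called (0.127% lower), and higher after HP pregnancy than after HP lactation at day 21, when 1.28% were called (0.899% higher). It was lower after HP pregnancy than in the control at day 150, when 2.63% of all genes were called (1.11% lower). No Cyp2 gene was called for HP pregnancy against control at day 21 (0% of all genes called), where 3 had an unadjusted p under 0.05 in limma beside 9.98% of all genes. None was called for HP lactation against control at day 150 (0.00908% of all genes called), where 2 had an unadjusted p under 0.05 beside 7.72% of all genes. HP pregnancy against HP lactation at day 150 also gave no called member (0.717% of all genes called) and 6 with an unadjusted p under 0.05 in limma, beside 17.4% of all genes. A call means an adjusted p under 0.05 in limma with Benjamini-Hochberg adjustment over all 11018 genes.

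**Figure D1:**
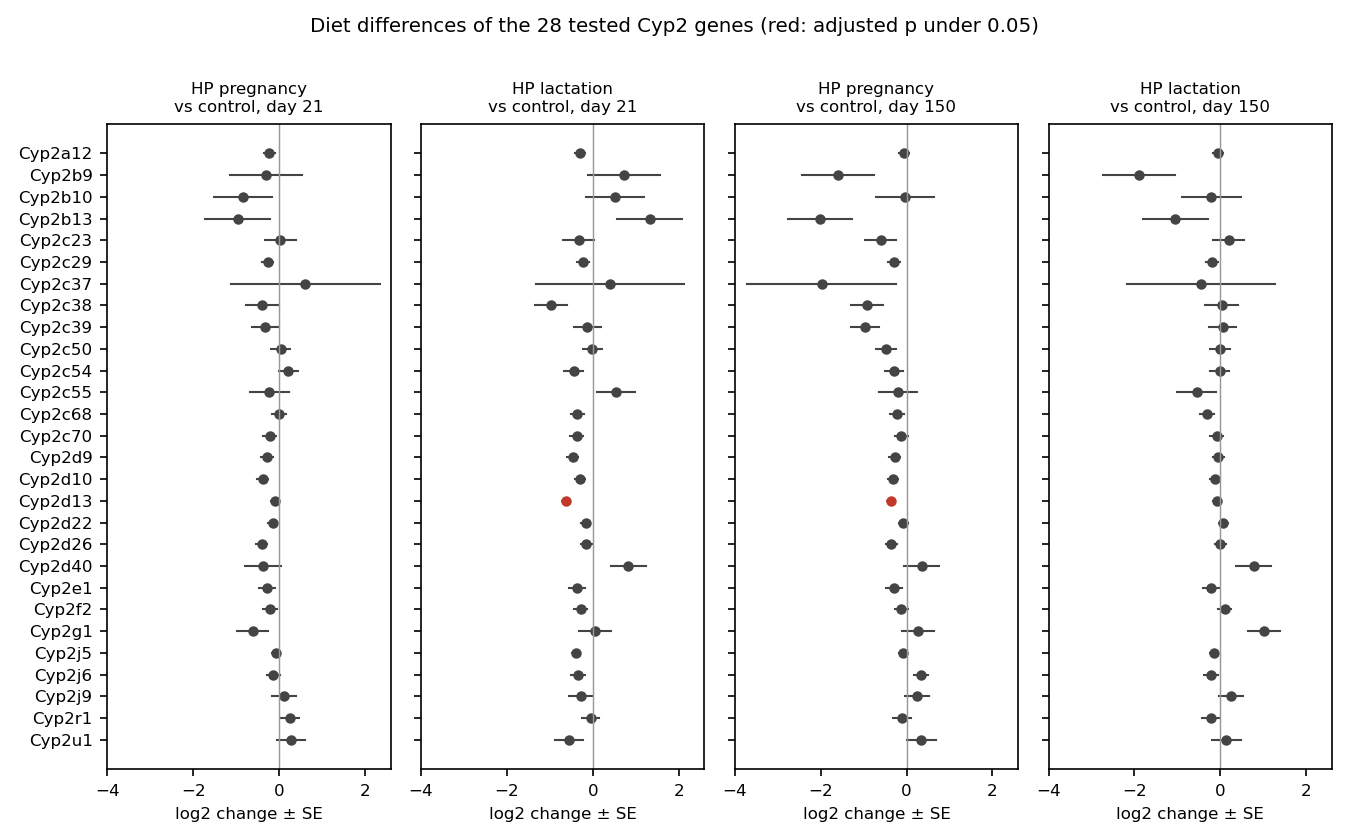
Log2 difference from the control group of the same age (x axis, point with its standard error) for each of the 28 tested Cyp2 genes (rows), in 4 panels for HP pregnancy and HP lactation at days 21 and 150, with 3 arrays per group. The points past the threshold are those of Cyp2d13, at -0.63 for HP lactation at day 21 and -0.37 for HP pregnancy at day 150, and the widest bars belong to Cyp2c37.

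Cyp2d13 is annotated in RefSeq as a transcribed pseudogene of the Cyp2d cluster on chromosome 15, so its probes may also bind RNA of other Cyp2d genes. Its signal at day 21 was 5807.6, 5696.8 and 5126.6 in the control arrays and 3626.9, 3371.5 and 3728.5 in the HP lactation arrays. These groups do not overlap, and the HP lactation values are the lowest of all 18 arrays. The difference was -0.63 on the log2 scale (SE 0.097, adjusted p = 0.00611), a 1.55-fold lower signal, in limma with all 18 arrays. The HP pregnancy arrays at day 21 read 4866.4, 5497.7 and 5251.8, near the control arrays and above every HP lactation array, which gave a difference of 0.54 between the exposures (SE 0.097, adjusted p = 0.00955 in limma). At day 150 the HP lactation arrays read 6453.7, 5847.1 and 6377.9, within the range of the control arrays at 6250.7, 7025.9 and 6513.3 apart from 1 array below it. The difference between the HP lactation responses at the ages was 0.55 (SE 0.14) and did not pass the test, with an adjusted p of 0.566 in limma. The summed hepatocyte markers and the 99th percentile moved in the same direction in the HP lactation group at day 21. The summed endothelial markers, all 6 above the filter and none at 0, were also below the control there, at 7647.9 to 8264.7 against 8980.6 to 9717.1. Taken singly, 3 of these 6 were higher and 3 lower, with a median log2 difference of 0.0044. The summed erythroid markers, 4 of 6 on the array, 2 above the filter and none at 0, were above the control at 2047.3 to 2362.7 against 1320.1 to 1712.1. Of the 2 above the filter, 1 was higher (0.73) and 1 lower (-0.099). After quantile normalization Cyp2d13 was still called for HP lactation against control at day 21. That step removes differences in the overall distribution of signals, but not differences in the share of cell types. The part of these marker sums and of the 99th percentile in the Cyp2d13 difference was not tested.

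The call of Cyp2d13 after HP pregnancy at day 150 was near the threshold. The HP pregnancy arrays read 5305.9, 5169.5 and 4841.9, all below the control arrays, and the difference was -0.37 (SE 0.097, adjusted p = 0.0475 in limma). Leaving out any 1 of the 6 arrays ended the call, with adjusted p-values of 0.0675 to 0.174. The call of the HP lactation difference at day 21 was lost without control replicate 1 (adjusted p = 0.0560), and the difference between the exposures without HP pregnancy replicate 2 or 3 (0.0656 and 0.0553), always in limma. In a fit on only the 6 arrays compared none of the 3 differences was called, with adjusted p-values of 0.243 and 0.102 at day 21 and 0.0576 at day 150 in limma.

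A second probe set of Cyp2d13 gave the same pattern at day 21 for the exposures and another one at day 150. At day 21 it read 2914.4, 3141.5 and 3120.9 in the control, 3628.8, 3590.9 and 3688.4 after HP pregnancy and 2045.7, 2185.7 and 2391.9 after HP lactation. The HP lactation arrays were again the lowest, while the HP pregnancy arrays lay above the control arrays here and overlapped them on the first probe set. The difference of HP pregnancy from HP lactation was 0.72 (SE 0.10, adjusted p = 0.00140) in limma, and that of HP lactation from control was -0.47 with an adjusted p of 0.0724 and was not called. At day 150 HP pregnancy and control differed by -0.047 on this probe set (SE 0.10, adjusted p = 0.858 in limma).

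**Figure D2:**
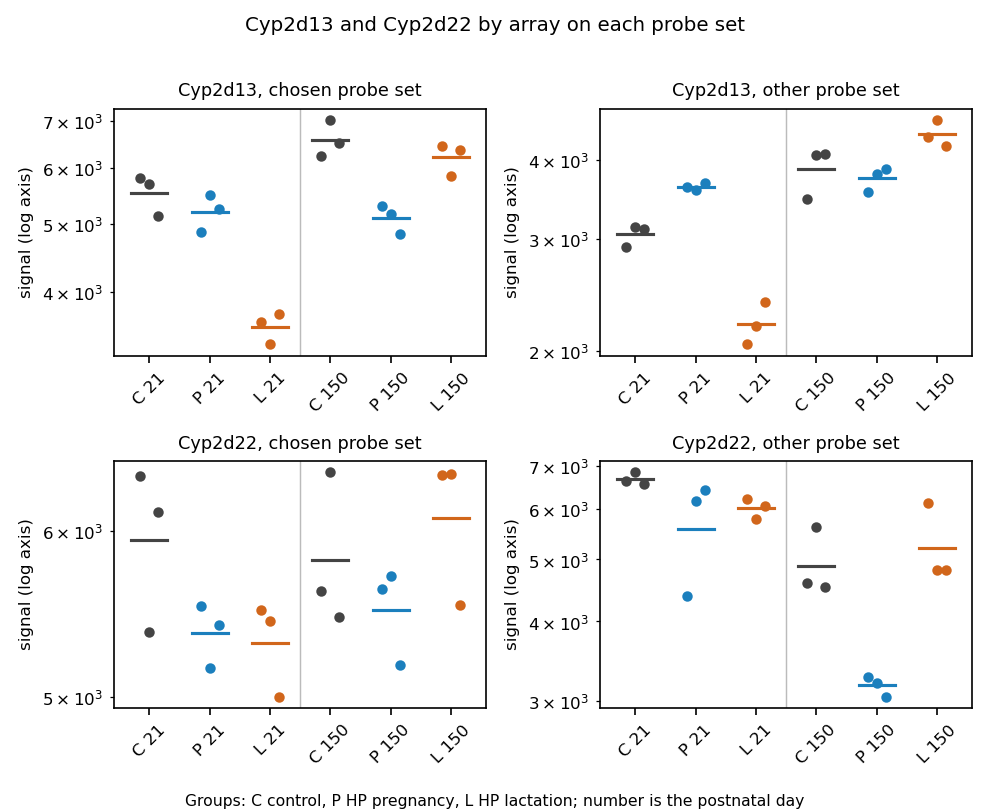
Signal (log axis) of the chosen and the other probe set of Cyp2d13 (top) and Cyp2d22 (bottom) on each array, as points with the geometric mean as a bar, for control (C), HP pregnancy (P) and HP lactation (L) at days 21 and 150. The HP lactation arrays at day 21 are the lowest on both Cyp2d13 probe sets, and the HP pregnancy arrays at day 150 are the lowest on the second probe set of Cyp2d22, at 3051.1 to 3279.7, and overlap the control on its first.

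Cyp2d22, a liver Cyp2d enzyme that metabolises drugs, also differed between its probe sets. The chosen one read 5617.7, 6399.1 and 5462.5 in the control and 5630.2, 5712.1 and 5182.9 after HP pregnancy at day 150, which overlap, and gave -0.079 (SE 0.10, adjusted p = 0.726) in limma. The other one read 4591.7, 5610.5 and 4521.2 in the control, 3279.7, 3206.4 and 3051.1 after HP pregnancy and 6129.3, 4820.5 and 4806.5 after HP lactation. There the HP pregnancy arrays were below all others of day 150, by -0.62 (SE 0.14, adjusted p = 0.0373) from the control and by -0.72 (SE 0.14, adjusted p = 0.0326) from HP lactation in limma over all probe sets. Which transcripts each probe set binds was not tested.

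The other Cyp2d genes did not pass the test in any diet comparison. Cyp2d10 read 26948.5, 25171.4 and 23558.9 in the control at day 21, 19747.1, 18212.8 and 20059.4 after HP pregnancy and 20309.2, 22757 and 18332.4 after HP lactation. Both exposed groups lay wholly below the control, yet the differences of -0.38 (SE 0.12) and -0.31 (SE 0.12) had adjusted p-values of 0.319 and 0.273 in limma. At day 150 Cyp2d10 read 21837.2, 29562.6 and 26430.8 in the control, 20700.0, 21364.9 and 19726.8 after HP pregnancy and 27195.6, 21261.8 and 22871.8 after HP lactation. Cyp2d26 read 20663, 20690.2 and 20162.8 in the control at day 21 and 15474.3, 15413.4 and 15508.2 after HP pregnancy. That difference, -0.41 (SE 0.13, adjusted p = 0.319) in limma, had the smallest unadjusted p of any member in its comparison. Cyp2d9, a steroid hydroxylase known for higher expression in male mice, gave -0.47 (SE 0.13, adjusted p = 0.150) for HP lactation against control at day 21. Cyp2d40 read only 51.2 to 194.3 and had no called difference, and Cyp2d12 and Cyp2d34 stayed below the filter with geometric mean signals of 31.7 and 21.3.

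Among the members as a group, most diet differences at day 21 were below 0. Of 28 members, 21 were negative for HP pregnancy and 21 for HP lactation, with medians of -0.22 and -0.28 against 0.0087 and 0.0047 for all genes tested. At day 150 the medians were -0.25 with 23 negative for HP pregnancy and -0.067 with 18 negative for HP lactation. These values stand beside those of strong signals in general. The 1102 genes of highest mean signal had medians of -0.12 and -0.21 at day 21 and -0.086 and -0.073 at day 150. Of them, 822 and 947 were negative at day 21 and 724 and 781 at day 150. After quantile normalization the Cyp2 medians were -0.030 and -0.082 at day 21, with 16 and 18 negative, and at day 150 they were -0.17 with 20 negative for HP pregnancy and 0.00051 with 14 negative for HP lactation. The HP lactation arrays lay wholly below the control arrays for 10 of 28 members at day 21 (35.7%), where 8.71% of all genes and 31.5% of the 1102 genes of highest mean signal did so. The same held for 8 members (28.6%) after HP pregnancy at day 21, beside 7.74% of all genes and 27.9% of the strongest. After HP pregnancy at day 150 it held for 5 members (17.9%), beside 12.9% and 22.1%. These shares of members are near those of the strongest genes, with no test of the difference. Counts at day 21 are on the scale of the deposited signals, in which strong signals were lower in the exposed groups.

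**Figure D3:**
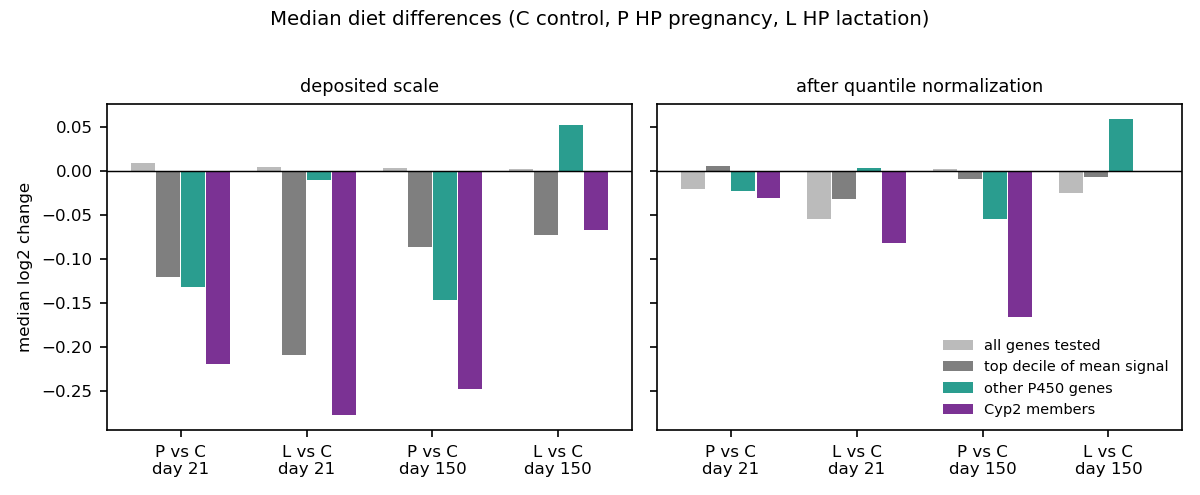
Median log2 difference from control (y axis) of all genes tested, the 1102 genes of highest mean signal (top decile), other P450 genes and Cyp2 genes, for HP pregnancy (P) and HP lactation (L) at days 21 and 150, on the deposited scale (left) and after quantile normalization (right). The Cyp2 medians lie between -0.28 and -0.067 on the left, where that of HP lactation at day 21 is the lowest. They move toward 0 on the right, where that of HP pregnancy at day 150 is the lowest at -0.17.

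The 26 tested genes of other P450 families gave medians of -0.13 and -0.0097 at day 21 and -0.15 and 0.052 at day 150 in the same order, on the deposited scale.

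The single members of the Cyp2a, Cyp2e and Cyp2f subfamilies are strongly read hepatocyte genes with no called diet difference. Cyp2e1 oxidises ethanol, acetone and small solvents, and is an enzyme of perivenous hepatocytes. It read 38028.2, 34656.4 and 35505.5 in the control at day 21, 30190.9, 25836.9 and 33938.3 after HP pregnancy and 26725.3, 33281.9 and 24480.8 after HP lactation. Both exposed groups were wholly below the control at day 21, and the differences were -0.27 and -0.37 (SE 0.18 each), moving to -0.0061 and -0.082 after quantile normalization. At day 150 Cyp2e1 read 32481.2, 46760.1 and 43594.6 in the control, 29844.7, 32597.8 and 36586.5 after HP pregnancy and 48948.5, 29321.3 and 28987.9 after HP lactation, which overlap. Cyp2f2, which activates naphthalene, read 22131.8, 24935.9 and 21855 in the control at day 21, 20803.6, 18735.9 and 20040.1 after HP pregnancy and 18453.8, 20387.7 and 17715.3 after HP lactation. Its day 150 arrays read 21933.7, 29138.8 and 30722.5, 23884.1, 24744.5 and 25980.3 and 39629.9, 24900.9 and 24440.8 in the same order, with the highest value on HP lactation replicate 4. Cyp2a12, a steroid and bile acid hydroxylase, read 26933.2, 25804.1 and 23999.9 in the control at day 21, 22116.6, 20801.8 and 22644.2 after HP pregnancy and 19499.5, 23808.2 and 19189 after HP lactation. Its values at day 150 were 19921.5, 26441.3 and 21241.2, 20931.3, 22315 and 21100.8 and 25339.9, 19068.6 and 20820.6, with no separation of the groups.

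Of the 10 tested Cyp2c genes none was called in a diet comparison. Cyp2c70, which makes muricholic acids from other bile acids, read 30261.3, 29305.8 and 28500.3 in the control at day 21, 25996.9, 23939.6 and 26166.3 after HP pregnancy and 17467.9, 28635.5 and 23137 after HP lactation. The HP lactation arrays spanned a wider range than the other arrays and their difference from control was -0.38 (SE 0.15, adjusted p = 0.281) in limma. At day 150 it read 26768.3, 35810.2 and 33206.3, 27312.6, 30446.9 and 29946.3 and 35609, 27125.4 and 27592.2 in the same order. All 10 Cyp2c differences were below 0 for HP pregnancy against control at day 150, with a median of -0.38. So were 5460 of all 11018 genes, 724 of the 1102 genes of highest mean signal and 17 of the 26 other P450 genes. After quantile normalization 9 Cyp2c genes were below 0 and the median was -0.35, beside 5460 of all genes and 572 of the strongest. The Cyp2c genes are related and were read on the same arrays, so they are not 10 separate observations. The lowest adjusted p among them was that of Cyp2c39, at -0.97 (SE 0.32, adjusted p = 0.0997) in limma. In the same comparison the summed signal of the erythroid markers, 4 of 6 on the array, 2 above the filter and none at 0, ran from 2654.9 to 2944.2 after HP pregnancy and from 1328.1 to 2158 in the control, without overlap. Its part in the Cyp2c differences was not tested.

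The Cyp2b genes lay on both sides of the control at day 21, with no call. Cyp2b13 read 720.8, 522.8 and 181.9 in the control, 198.4, 227.2 and 205.5 after HP pregnancy and 1181.8, 645.7 and 1416.3 after HP lactation. The HP pregnancy arrays lay close together and below every HP lactation array, and that difference was -2.29 (SE 0.75, adjusted p = 0.143) in limma. Cyp2b9 read 4321.5, 3107.8 and 1994.3 in the control, 2919.7, 2010.2 and 2454 after HP pregnancy and 5647.8, 3406.6 and 6313.2 after HP lactation. Here too all HP lactation arrays exceeded all HP pregnancy arrays, with a difference of -1.03 (SE 0.84, adjusted p = 0.609) in limma.

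Of the Cyp2j genes, which make epoxides of arachidonic acid, none was called in a diet comparison. Cyp2j5 had one of the smallest spreads of the family and read 19973.5, 19519.2 and 18933.1 in the control at day 21, 17986.4, 18758.4 and 19220.0 after HP pregnancy and 13954.4, 16446.2 and 14247.3 after HP lactation. The HP lactation arrays were below all others, by -0.39 (SE 0.096, adjusted p = 0.105) from control in limma. Its second probe set read 5558.8, 5974.1 and 5893.3 after HP pregnancy and 2346.7, 3130.5 and 4213.6 after HP lactation, and that difference was 0.89 (SE 0.19, adjusted p = 0.0342) in limma, against 0.33 (SE 0.096, adjusted p = 0.0998) on the first. At day 150 the chosen probe set of Cyp2j5 read 19500.4, 21722.3 and 21781.8, 19242.8, 19521.8 and 20581 and 21070.6, 17707.2 and 18198.1 in control, HP pregnancy and HP lactation. Cyp2j6 read 1194.8, 1418.6 and 1445.2 after HP pregnancy at day 150 and 802.4, 1005 and 967.8 after HP lactation, without overlap. This difference, 0.55 (SE 0.16, adjusted p = 0.0864) in limma, had the smallest unadjusted p of any member in its comparison and was not called.

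Cyp2g1, known from the olfactory mucosa, was read weakly. Its signals were 150.6, 320.7 and 213.6 in the control at day 21, 127.7, 163.4 and 138 after HP pregnancy and 162.8, 262.2 and 268.1 after HP lactation. At day 150 they were 166.5, 232.6 and 77.8, 145.6, 217 and 168 and 445.3, 282.5 and 198.4 in the same order, and the difference of HP lactation from control, 1.02 (SE 0.37, adjusted p = 0.517) in limma, had the smallest unadjusted p of the members there. Overlap came from 1 control array at 232.6 and 1 HP lactation array at 198.4.

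The comparison of the ages asked which genes changed between weaning age and adulthood, separately in each diet group and so on different arrays. More Cyp2 genes passed here. In the control 6 members were called, 3 higher and 3 lower at day 150, where 17.8% of all genes were called (9.7% higher, 8.08% lower), and after quantile normalization 8 were called, 5 higher and 3 lower. After HP pregnancy 9 were called, 3 higher and 6 lower (23.6% of all genes, 12.1% higher and 11.5% lower), and after HP lactation 11, 8 higher and 3 lower (25.7% of all genes, 14.1% higher and 11.6% lower). Without the 2 arrays with Xist signal the counts were 6, 11 and 10. As shares of 28 tested members these are near the share of all genes in the control and above it in the other groups, with no test of that difference. Of the 26 tested genes of other P450 families, 4 were called higher and 5 lower in the control. After HP pregnancy 4 of them were higher and 8 lower, and after HP lactation 4 and 6. Of the 1102 genes of highest mean signal, 110 were higher and 125 lower in the control. After HP pregnancy these counts were 164 and 155, and after HP lactation 254 and 109. In all 3 diet groups and in 1 direction, 6 members were called, where 10.9% of all genes were. Cyp2b9, Cyp2b13 and Cyp2c39 fell (4.94% of all genes fell in all 3), and Cyp2c23, Cyp2r1 and Cyp2u1 rose (5.98%). In at least 1 diet group 14 members were called (37% of all genes), and the other 14 in none. Every day 150 array had the higher Gapdh 3′ to 5′ ratio, so age and this measure of RNA or labelling quality cannot be told apart. Summed signals of the 6 stellate cell markers, all above the filter and none at 0, ran from 18001.3 to 26912.4 at day 21 and from 11429.4 to 18348.1 at day 150. Those of the 7 Kupffer cell markers, all above the filter and none at 0, were higher at day 150 without overlap in the control, at 10934.6 to 14731 against 9448.9 to 10757.9, and after HP pregnancy. Taken singly, 6 of the 7 were higher and 1 lower in the control. After HP pregnancy 4 were higher and 3 lower, with 1 called in each direction and a median log2 difference of 0.099. The part of the stellate or Kupffer cell markers in the age differences of the Cyp2 genes was not tested.

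**Figure D4:**
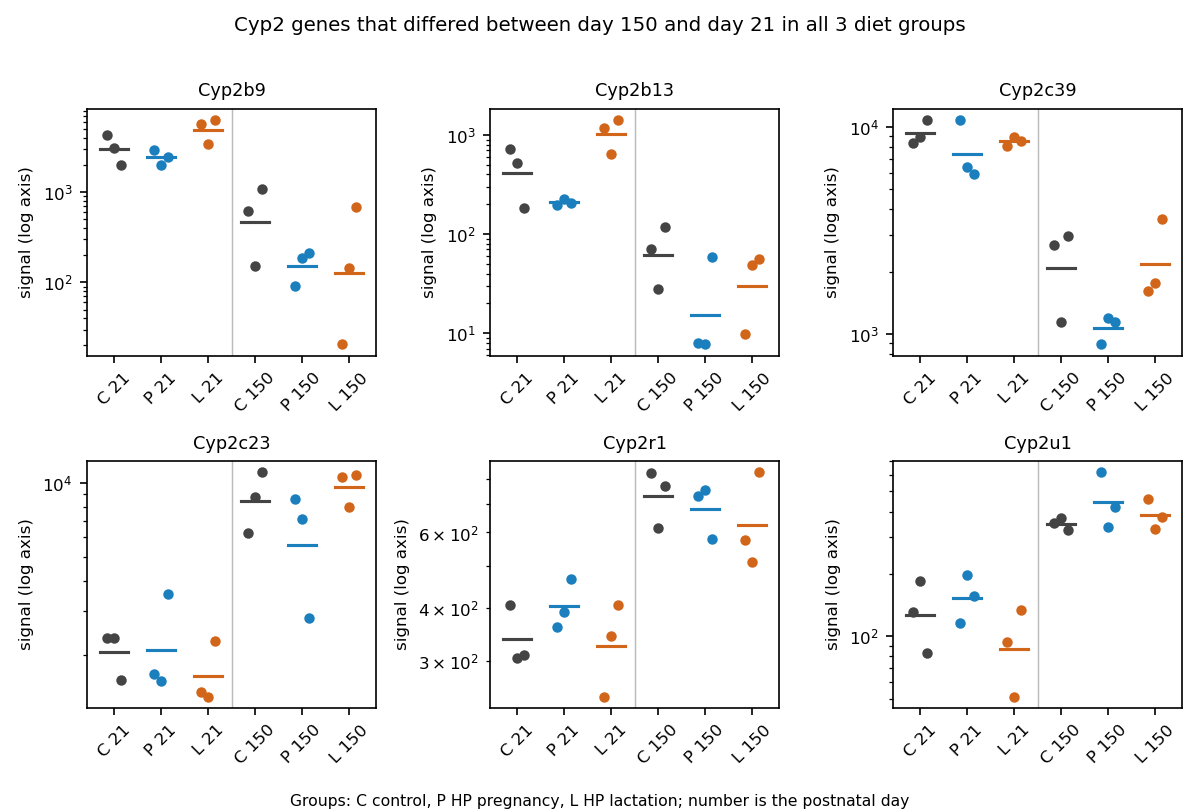
Signal (log axis) on each array, as points with the geometric mean as a bar, of the 6 Cyp2 genes called between the ages in all diet groups, for control (C), HP pregnancy (P) and HP lactation (L) at days 21 and 150. Cyp2b9, Cyp2b13 and Cyp2c39 are lower at day 150 and Cyp2c23, Cyp2r1 and Cyp2u1 higher, and only the HP pregnancy arrays of Cyp2c23 overlap between the ages, at 2817.7 against 3524.7.

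Cyp2b9 and Cyp2b13 showed the largest age differences in the family. Both encode steroid hydroxylases that in adult mice are known for higher expression in female than in male liver. At day 150 Cyp2b9 read 621.9, 152.3 and 1072.7 in the control, 91.3, 184.7 and 214.1 after HP pregnancy and 20.5, 145.3 and 676.8 after HP lactation. Each is below every day 21 array of its diet group given above. The log2 difference between day 150 and day 21 was -2.68 (SE 0.84) in the control, -3.99 in the HP pregnancy group and -5.29 in the HP lactation group, with adjusted p-values of 0.0328, 0.00222 and 0.000171 in limma. As folds these were 6.41, 15.9 and 39.2. The lowest of its 18 values, 20.5, came from HP lactation replicate 4, the adult array with Xist signal. Without that array the HP lactation difference was -3.98, and without replicate 6 it was -6.50. In the control the call was lost on leaving out replicate 1 or 2 of either age, with adjusted p-values of 0.0553 to 0.177, and the difference ranged from -3.28 to -1.87. With eBayes without a trend its adjusted p was 0.0603.

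Cyp2b13 at day 150 read 71, 28.1 and 119.2 in the control, 7.9, 7.7 and 58.6 after HP pregnancy and 9.9, 48.5 and 56.3 after HP lactation. Most of these are at or below the level of the low-signal filter, so the size of the difference depends on very low signals. It was -2.72 in the control, -3.78 in the HP pregnancy group and -5.10 in the HP lactation group (SE 0.75 each), with adjusted p-values of 0.0178, 0.00150 and 8.70e-05 in limma. With 50 added to every signal before the logarithm the differences after HP pregnancy and HP lactation shrank to -1.87 and -3.66, and the call was kept in all 3 diet groups. In the control the call was lost without replicate 1 or 2 of day 21 or replicate 2 of day 150, with adjusted p-values of 0.0658 to 0.0973. Without HP pregnancy replicate 3 of day 150 that difference was -4.75, and without HP lactation replicate 4 of day 150 the other was -4.30.

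No difference between the diets in the size of this fall passed the test of the difference itself. For HP lactation against control the differences of the age changes were -2.61 for Cyp2b9 (95% interval -5.09 to -0.13) and -2.37 for Cyp2b13 (-4.60 to -0.14), each with an adjusted p of 0.929 in limma. No member passed this test for either exposure, where 0.0182% of all genes did in each case. For HP lactation 4 members had an unadjusted p under 0.05 in limma (5.1% of all genes), and for HP pregnancy 0 did (3.87% of all genes).

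The promoters of Cyp2b9, Cyp2b13 and Cyp2b10, of the Cyp2b cluster on chromosome 7, are shown as a description of sequence. Cyp2b9 and Cyp2b13 moved alike with age. Cyp2b10 did not pass the age test on its chosen probe set, but did after HP lactation on its other probe sets. Any part of the promoters in these differences was not tested. The 250 bases before each annotated start are from RefSeq on GRCm38.p6, on the plus strand, at chr7:26173159-26173408 for Cyp2b9, chr7:26061245-26061494 for Cyp2b13 and chr7:25897408-25897657 for Cyp2b10. Capitals mark matches to TTGCNNAA, a core of the C/EBP binding motif, on either strand.
Cyp2b9: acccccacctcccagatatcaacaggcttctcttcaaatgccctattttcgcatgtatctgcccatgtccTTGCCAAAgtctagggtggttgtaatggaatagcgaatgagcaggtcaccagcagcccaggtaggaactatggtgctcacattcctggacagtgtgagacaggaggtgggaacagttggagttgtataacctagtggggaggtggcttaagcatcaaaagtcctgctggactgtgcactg
Cyp2b13: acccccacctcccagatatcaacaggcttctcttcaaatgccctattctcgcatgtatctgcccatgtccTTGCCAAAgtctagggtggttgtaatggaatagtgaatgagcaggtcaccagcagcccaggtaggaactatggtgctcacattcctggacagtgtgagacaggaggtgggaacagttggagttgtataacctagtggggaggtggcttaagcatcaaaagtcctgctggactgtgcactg
Cyp2b10: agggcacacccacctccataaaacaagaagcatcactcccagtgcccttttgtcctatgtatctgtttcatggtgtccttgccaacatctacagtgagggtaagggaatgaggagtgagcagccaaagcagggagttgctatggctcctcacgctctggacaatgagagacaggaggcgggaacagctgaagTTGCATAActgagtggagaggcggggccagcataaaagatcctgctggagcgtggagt
The Cyp2b9 and Cyp2b13 sequences were identical at 248 of 250 bases (99.2%). They differ by the substitutions T48C and C104T, with the Cyp2b9 base first and positions counted from the first base shown. Each was 70% identical to Cyp2b10 over 260 aligned columns. The letters TTGCNNAA occur in 9.56% of all 32851 promoter windows in the table and in 6 of 29 windows of Cyp2 genes, which belong to 27 of the 35 members. TTCNNNGAA, a STAT5 motif, was in 7.02% of all windows and 1 Cyp2 window, and in none of these 3. CAAAGTCCA, an HNF4A motif, was in 0.384% of all windows and in those of Cyp2c65, Cyp2c68 and Cyp2c70. TATAAA was in 12.4% of all windows and in 12 Cyp2 windows. A match is a description of the letters and no evidence of binding. With genes as similar as Cyp2b9 and Cyp2b13, RNA of either may bind the probes of the other, so the pair may not be separate measurements.

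Cyp2b10, the classical gene induced through CAR, read 1002.5, 851.6 and 2873.5 in the control at day 21, 2893.3, 461.6 and 318.9 after HP pregnancy and 2277, 4171.6 and 761.1 after HP lactation. The groups overlap widely, because 4 of the 9 arrays of day 21 read 2277 or more, spread over all diets, and the other 14 arrays of the study read 1008.8 or less. At day 150 the values were 1008.8, 493.3 and 472.8, 491.6, 578.2 and 766.5 and 616.3, 314.9 and 785.6 in control, HP pregnancy and HP lactation, with no array in the upper range. The age difference after HP lactation was -1.86 (SE 0.68, adjusted p = 0.0523) in limma on the chosen probe set. The other 2 probe sets gave -2.42 (SE 0.69, adjusted p = 0.0158) and -2.24 (SE 0.72, adjusted p = 0.0306) and were called. Nr1i3, which encodes CAR, fell with age in all diet groups, by 0.81, 0.76 and 0.65 on the log2 scale in the control, HP pregnancy and HP lactation groups (adjusted p = 0.0122, 0.0133 and 0.0293 in limma). Cyp2b19, a skin gene, stayed below the filter at 2.7 to 50.7.

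Cyp2c39, which hydroxylates retinoic acid, fell with age in each diet. At day 21 it read 8372.3, 8924.9 and 10774.3 in the control, 10802.4, 6401.5 and 5946.8 after HP pregnancy and 8134.1, 8929.4 and 8531.5 after HP lactation. At day 150 it read 2687.2, 1136.8 and 2960.3, 887.7, 1198.4 and 1142.2 and 1609.4, 1752.9 and 3604.6 in the same order, so that no array of 1 age reached the range of the other. The differences were -2.16, -2.80 and -1.98 (SE 0.32 each), with adjusted p-values of 0.000154, 7.65e-06 and 0.000199 in limma, and were called in every alternative run.

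Cyp2c23, an arachidonic acid epoxygenase of liver and kidney, rose with age. It read 2329.5, 2335.9 and 1577.7 in the control at day 21, 1661.1, 1555.2 and 3524.7 after HP pregnancy and 1414.3, 1347.2 and 2266.5 after HP lactation. At day 150 the signals were 6229.1, 8763.3 and 11057.1, 8619.6, 7115.7 and 2817.7 and 10551.6, 7959.1 and 10759.7 in the same order. The ages were apart in the control and after HP lactation, and overlapped after HP pregnancy through the adult array at 2817.7. The differences were 2.05, 1.42 and 2.57 (SE 0.36 each), with adjusted p-values of 0.000750, 0.00793 and 4.75e-05 in limma.

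Cyp2r1, a hydroxylase that makes the circulating form of vitamin D in liver, rose as well. It read 406.7, 305 and 310.1 in the control at day 21 and 825.2, 613.5 and 772.7 at day 150, 360.2, 391.6 and 466.5 and then 730.6, 753.6 and 578 after HP pregnancy, and 247.6, 343.5 and 405.5 and then 577.1, 510.9 and 830.2 after HP lactation. No diet group overlapped between the ages. The differences were 1.12, 0.76 and 0.94 (SE 0.21 each), with adjusted p-values of 0.00129, 0.0130 and 0.00287 in limma. After HP pregnancy the call was lost without replicate 2 of day 150 (adjusted p = 0.0577).

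Cyp2u1, a hydroxylase of long-chain fatty acids, read 131.6, 184.6 and 83.2 in the control at day 21, 116.5, 198.6 and 155.6 after HP pregnancy and 94.3, 51.1 and 134.3 after HP lactation. At day 150 it read 353.4, 371 and 325.9, 619.1, 336 and 420.9 and 461.2, 330.4 and 377.4 in the same order, above every day 21 array. The differences were 1.47, 1.53 and 2.16 (SE 0.33 each), with adjusted p-values of 0.00517, 0.00270 and 0.000125 in limma. Its second, weaker probe set also rose, by 1.42, 1.27 and 1.37.

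Other members were called between the ages in 1 diet group only, and a call in 1 group and not in another is no difference between the diets. After HP pregnancy these were Cyp2c38 at -1.50, Cyp2c50 at -0.93 and Cyp2c54 at -0.79, all lower at day 150. Their age differences in the control were -0.96, -0.43 and -0.28 and were not called. Cyp2c54 lost its call without HP pregnancy replicate 1 of day 21 or replicate 3 of day 150 (adjusted p = 0.0526 and 0.0640 in limma). After HP lactation the called members were all higher at day 150: Cyp2d13 at 0.80, Cyp2d9 at 0.74, Cyp2j9 at 0.92, Cyp2f2 at 0.62 and Cyp2j5 at 0.35. These share the HP lactation arrays of day 21, whose strong signals were lower as a whole. The 1102 genes of highest mean signal had a median age difference of 0.14 in this group. Cyp2j9 was read weakly beside the other genes named here, at a mean signal of 439. The part of the lower strong signals in these age differences was not tested. Cyp2j9 dropped to 0.49 and was no longer called without replicate 3 of day 21 (adjusted p = 0.117), nor was it without replicate 6 of day 150 (0.0641) or without the 2 arrays with Xist signal (0.0503). Cyp2j5 was not called without replicate 1 of day 21 (0.0501), and Cyp2f2 dropped to 0.39 without replicate 4 of day 150, with a call (0.0326). In a fit on only the 6 arrays compared Cyp2j5, Cyp2j9 and Cyp2f2 were not called (adjusted p = 0.127, 0.0812 and 0.0616 in limma), while Cyp2d9 and Cyp2d13 were.

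Cyp2j6 is a further member whose probe sets disagree. Its chosen probe set read 1393.7, 1095.3 and 1234 in the control at day 21 and 1266.9, 841.6 and 1148.5 at day 150, which overlap. The other probe set read 551.7, 451.2 and 380.3 and 846.2, 844.2 and 864.2 and differed by 0.90 (SE 0.14, adjusted p = 0.000402) in limma. It also rose by 0.72 after HP pregnancy and 0.65 after HP lactation.

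The members differed in how much arrays of a group varied. The standard deviation within groups, pooled over the 6 groups, had a median of 0.29 on the log2 scale over the 28 tested members and 0.23 over all genes. It was under 0.25 for 12 members, with Cyp2d13 lowest at 0.083, and over 1 for 4, namely Cyp2b10, Cyp2b13, Cyp2b9 and Cyp2c37. The widest was that of Cyp2c37, at 2.62. Cyp2c37 read 225.9, 5422 and 293.7 in the control at day 21, 95, 2999.4 and 4510.1 after HP pregnancy and 231.3, 9334.1 and 381.5 after HP lactation. At day 150 it read 138.7, 91.5 and 3152.1, 106.1, 90.6 and 68.4 and 2678.4, 51.3 and 113.2 in the same order. On 6 arrays it was at 2678.4 or more and on 12 at 381.5 or less, a gap of 7.02-fold with no array in it, and the 6 arrays came from 5 groups. Both arrays with Xist signal, control replicate 2 of day 21 and HP lactation replicate 4 of day 150, are among the 6. The rest of the 6 had no such signal. No comparison of Cyp2c37 between groups passed the test, and the interval for HP pregnancy against control at day 150 ran from -5.60 to 1.65 on the log2 scale.

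**Figure D5:**
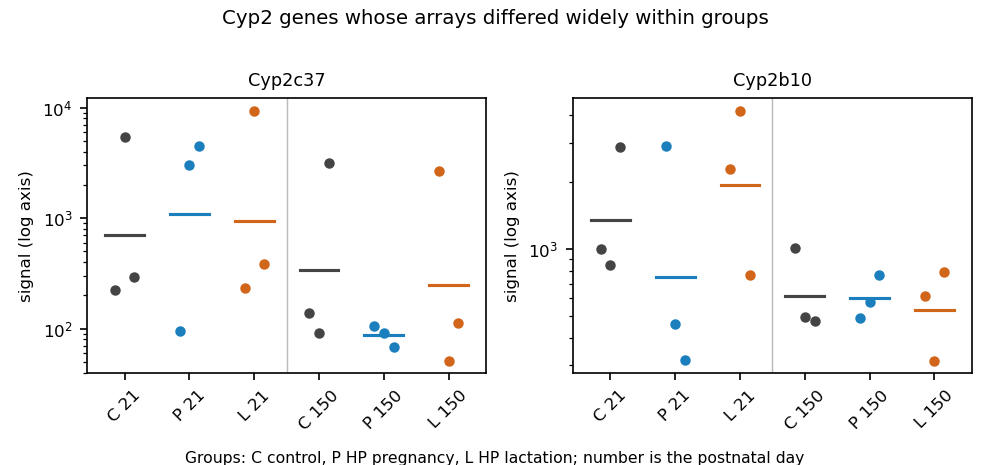
Signal (log axis) of Cyp2c37 (left) and Cyp2b10 (right) on each array, as points with the geometric mean as a bar, for control (C), HP pregnancy (P) and HP lactation (L) at days 21 and 150. Cyp2c37 lies at 2678.4 or above on 6 arrays and at 381.5 or below on the other 12, and Cyp2b10 at 2277 or above on 4 arrays, all of day 21.

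Cyp2c50, a closely related gene that also lies on chromosome 19, was looked at on these arrays after the Cyp2c37 values were seen. It read 8912, 13759.2 and 11029.3 in the control at day 21, 10309.6, 11230.5 and 12568 after HP pregnancy and 8052.3, 16467.4 and 10022.4 after HP lactation, and 7248.9, 7303.4 and 10532.7, 6985.3, 6285.7 and 4766 and 9383.4, 6630.3 and 8862.4 at day 150. In each of the 5 groups that hold an array with high Cyp2c37, Cyp2c50 was higher on those arrays than on the rest of the group. Cyp2c54 did not follow this order after HP pregnancy at day 21, where it read 12045.9, 10319.8 and 9055.9. Nor did it after HP lactation at day 150, where it read 5721.2, 7144.7 and 9468.8 and was lowest on the array with high Cyp2c37. Whether the Cyp2c37 probes bind RNA of other Cyp2c genes was not tested.

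Genes that serve the P450 enzymes showed few diet differences. Of 5 tested partners that supply electrons or bind P450 enzymes, none was called in any diet comparison. Of 11 tested genes of heme synthesis and breakdown, Alad, an early enzyme of heme synthesis, fell after HP pregnancy at day 150, by 0.68 against control (SE 0.16, adjusted p = 0.0395 in limma). Of 12 tested nuclear receptors and liver factors and of 9 growth hormone signalling genes, none was called in a diet comparison. With age Cyb5b, a cytochrome b5 of the outer mitochondrial membrane, rose by 0.92, 0.81 and 0.81 in control, HP pregnancy and HP lactation. Pgrmc2, a further partner, rose by 0.40 in the control and 0.50 after HP lactation. Of all genes tested, 17.8%, 23.6% and 25.7% were called with age in the control, HP pregnancy and HP lactation groups. The heme list moved in both directions with age, with 2 genes higher in each diet group and 3, 4 and 3 lower. Urod, Cpox and Hmox2 fell in all diet groups, Urod by 0.86, 1.07 and 0.65, and Alad fell after HP pregnancy. Fech, which inserts the iron into heme, rose in all, by 0.35, 0.59 and 0.69, Uros rose in the control and after HP lactation by 0.46 and 0.41, and Hmox1, named after its value was seen, rose by 0.81 after HP pregnancy. The liver factors also went both ways, with 1, 2 and 2 called higher and 2, 3 and 3 lower. Hnf4a rose in all, by 0.43, 0.52 and 0.49, and Cebpa by 0.68 and 0.90 after HP pregnancy and HP lactation, where Ahr fell by 0.66 and 0.51. Nr1i2, which encodes PXR, fell by 0.50 and 0.44 in the control and after HP lactation, and Ppara, named after its value was seen, by 0.58 after HP pregnancy. Among the growth hormone signalling genes Ghr, the receptor, rose by 0.61, 0.71 and 1.26, and Igf1 by 0.57 after HP lactation. Bcl6 rose by 2.13, 1.89 and 1.63 and Jak2 by 0.66, 0.58 and 0.44, all called in limma.

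The 7 members below the filter were Cyp2b19, Cyp2c65, Cyp2d12, Cyp2d34, Cyp2j11, Cyp2j13 and Cyp2s1, with geometric mean signals of 5.47 to 31.7. Cyp2s1, an enzyme of epithelia, read 12.4, 6.4 and 3.5 in the control at day 21, 33.4, 44.2 and 29.6 after HP pregnancy and 58, 18.2 and 45 after HP lactation. At day 150 it read 18.8, 3 and 20.4, 49.6, 38.6 and 37.4 and 44.9, 50.4 and 15.3. Such values are not told apart from background here, and no level was inferred from them.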

How the data were processed

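The authors deposited 1 table of intensity values with 1 signal per probe set and array, made with MAS5 in GCOS 1.4 per the submitters' processing notes; every array's trimmed mean was 500, which was checked here. Detection calls and scan dates were not used here. Signals were log2-transformed with 0 added. Gene names came from GEO's platform annotation: of 45101 probe sets, 64 were controls, 34945 named 1 gene, 932 several and 9160 none, and only those naming 1 gene were used. Each gene took its probe set with the highest mean log2 signal, and genes under the median of the non-control probe sets (log2 5.85) were left out.

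All 18 arrays entered 1 fit in limma 3.58.1 (R 4.3.3; lmFit, contrasts.fit and eBayes with trend), tested on simulated data, with 11 two-sided comparisons and Benjamini-Hochberg adjustment over all genes in each. Precision is limited by 3 arrays per group: a difference between groups had a median standard error of 0.21 over the members. All 35 members matched RefSeq (GRCm38.p6) by gene ID. Promoters were aligned with Biopython 1.88 (Python 3.11.15), and figures drawn with matplotlib 3.10.9. Named genes were those past the threshold, those with the smallest p where none passed, and the member with the highest signal in each subfamily, with others chosen after their values were seen. The members and lists were chosen with earlier results of these data known. Alternatives were another filter, quantile normalization, 50 added to the signal, other probe sets, eBayes without trend, fits on only the arrays compared, a replicate block, and leaving out arrays.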

Additional observations from a re-analysis of the deposited data

How the results depend on the processing

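Counts of called Cyp2 genes between the ages stayed within 1.5 times under every alternative run: leaving out 1 array gave 4 to 6 in the control, 8 to 9 after HP pregnancy and 10 to 12 after HP lactation. Counts in diet comparisons rest on Cyp2d13 in the main run and are less steady. A count of 2 in an alternative run includes at least 1 other member. For HP lactation against control at day 21 the count of 1 became 0 with probe sets without a suffix preferred and 0 on only the arrays compared, and 0 to 2 on leaving out 1 array. For HP pregnancy against HP lactation at day 21 the count of 1 became 2 with quantile normalization and 2 with 50 added to the signal, and 0 to 2 on leaving out 1 array. For HP pregnancy against control at day 150 the count of 1 became 0 with no filter, with probe sets without a suffix preferred, with eBayes without trend, with the replicate block and on only the arrays compared, and 0 to 1 on leaving out 1 array. The cause was not tested. Counts of 0 in the other diet comparisons and in both differences of responses were 0 on leaving out any 1 array. The difference of the HP pregnancy responses of Cyp2j6, 0.46 with no call, turned to -0.18 on its other probe set, an alternative added after seeing the data. Of the values of single genes 559 kept their direction and side of the threshold, 37 lost their call and 1 reversed. The labels name no pairing by replicate number. The correlation of deviations of same-numbered arrays ran from -0.11 to 0.10 over 30 pairs, and that of differently numbered arrays from -0.17 to 0.18 over 60. Such values cannot exclude a pairing, and HP lactation at day 150 was not among them. The replicate block, which could not include that group either, changed no other count by more than 1.5 times. Low signals left 7 of 35 members without a test.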

Other observations

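Cyp2a4 and Cyp2a5, a steroid hydroxylase and a coumarin hydroxylase that are nearly identical, share a probe set that names both and so belong to none of the 35 genes above. The shared probe set read 6766.5, 9457.5 and 11377 in the control at day 21, 5876, 2910.2 and 5505.3 after HP pregnancy and 11223, 12387.1 and 7483.9 after HP lactation. All HP pregnancy arrays were below all others of that age. The difference from control was -0.98 (SE 0.27, adjusted p = 0.325) and that from HP lactation -1.16 (SE 0.27, adjusted p = 0.0547) in limma, and neither was called. At day 150 the signals were 11519, 10038.4 and 14204.9 in the control, 8242.5, 14101.1 and 13143.4 after HP pregnancy and 17047.4, 11882.9 and 11076.5 after HP lactation, which overlap. The probe set rose with age after HP pregnancy, by 1.34 (SE 0.27, adjusted p = 0.00193) in limma, while the differences in the control and after HP lactation were 0.39 and 0.37. The age difference after HP pregnancy exceeded that in the control by 0.95 (SE 0.39, adjusted p = 0.999) and that after HP lactation differed from it by -0.022 (SE 0.39, adjusted p = 0.998) in limma, and neither of these differences passed the test.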
